A study of Mus musculus with 2 samples.

Results

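The *Sox* genes described here are 8 members of a family of transcription factors that bind DNA through a shared HMG box: *Sox1*, *Sox2* and *Sox3* of group SoxB1, *Sox21* of SoxB2, *Sox9* of SoxE, and *Sox4*, *Sox11* and *Sox12* of SoxC. They were chosen by symbol, as 8 of the 28001 features counted in septal explants and 8 of the 32286 features counted in the telencephalic vesicle, and all 8 were detected in both. The question was how their expression is divided between apical progenitors (APs), which line the ventricle, basal progenitors (BPs), which have left it, and neurons, and whether that division depends on the region.

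In the embryonic telencephalon, SoxB1 factors maintain the neural progenitor state and counteract neurogenesis. SOX21 opposes SoxB1 activity at shared target sites, and SOX9 takes part in the formation and maintenance of neural stem cells and later of glia. SoxC factors act downstream of the proneural factors and activate pan-neuronal genes. Pallial APs give rise to glutamatergic neurons, largely through BPs expressing *Eomes* and *Neurog2*, whereas APs of the medial and lateral ganglionic eminences (MGE and LGE) give rise to GABAergic neurons through intermediate cells expressing *Dlx* genes. The cortical hem and septum are among the sources of Cajal-Retzius cells.

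Both datasets are droplet scRNAseq of C57BL/6J embryonic brain, 1 pooled library each, in which every captured transcript carries a unique molecular identifier (UMI). The septal explants (the explants) came from 8 E11.5 *PGKCre;Rosa26YFP* embryos and 4 E12.5 *Dbx1Cre;Rosa26tdTomato* embryos, each kind from 2 litters, whereas the telencephalic vesicle (the vesicle) came from 3 embryos of 2 litters without a reporter allele, of stage E12 by the labels and E11.5 to E12 by the study's methods. The labels call the genotype of both wild-type. PGKCre recombines ubiquitously and Dbx1Cre in the *Dbx1* lineage, so that the reporters label cells but remove no gene.

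Embryos could not be told apart within a library, except as far as the reporters allow, and no library had a replicate. Cells are not replicates, hence no significance test was made, and all intervals are exact 95% intervals that cover counting error only. Levels are CPM, the UMIs of a gene per 1000000 UMIs of all genes, over all cells of a class together. Levels were compared neither between the libraries, which differ in kit, reference and counting software, nor between genes. The kept cells numbered 5384 in the explants, with a median of 12868.5 UMIs, and 11707 in the vesicle, with a median of 9032. The libraries shared 1 barcode. Clusters were made without any *Sox* gene and named by marker genes, as "X-like". In the explants 4 clusters with 924 cells stayed without a name, among them a cluster of 382 cells on the AP side led by the blood and macrophage genes *Pf4*, *Lyz2* and *Ppbp*, and 2 clusters with 410 cells on the neuron side, which are hence not among the neuron classes below. All 4 were counted as neural, so that the 5324 neural cells of the explants include the 382 led by blood and macrophage genes. In the vesicle 2 shallow clusters with 901 cells stayed without a name and were not counted as neural.

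The genes are compact. On GRCm38 (mm10), *Sox2* (ENSMUSG00000074637) is a single-exon gene at chr3:34650405-34652461 on the plus strand, inside the non-coding gene *Sox2ot* of the same strand, and *Sox1* (ENSMUSG00000096014) is a single-exon gene at chr8:12395295-12400126 inside *Sox1ot*, also on the plus strand. Both non-coding genes are listed in the vesicle only, and how reads in these overlaps were assigned there was not tested. *Sox4* (ENSMUSG00000076431) lies at chr13:28948919-28953713 and *Sox11* (ENSMUSG00000063632) at chr12:27334264-27342574, both on the minus strand with 1 exon. *Sox3* (chrX:60891366-60893430, minus strand) and *Sox21* (chr14:118233232-118237030, minus strand) also have 1 exon, *Sox9* (chr11:112782224-112787760, plus strand) has 3, and *Sox12* (chr2:152393611-152398063, minus strand) is annotated with 1 or 2. Promoter sequences of RefSeq, running from 250 bases before to 50 after the start annotated by RefSeq on GRCm38.p6, were matched to 6 of the 8 genes. For *Sox2* and *Sox11* the RefSeq start lies upstream of the gene start given above, so that these 2 windows end before it. The promoters of the progenitor gene *Sox2* and of the neuronal pair *Sox4* and *Sox11* are shown because these 3 genes carry the contrast described below. Capitals mark E-boxes, the sites of proneural bHLH factors, searched as CANNTG, which reads the same on both strands.
Sox2 (chr3:34649745-34650044, plus strand): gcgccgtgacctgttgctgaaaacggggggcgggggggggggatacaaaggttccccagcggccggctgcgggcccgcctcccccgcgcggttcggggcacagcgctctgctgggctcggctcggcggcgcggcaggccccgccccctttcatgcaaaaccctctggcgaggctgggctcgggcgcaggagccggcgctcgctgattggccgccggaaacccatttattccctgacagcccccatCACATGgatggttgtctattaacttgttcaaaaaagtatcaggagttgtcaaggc
Sox4 (chr13:28953650-28953949, minus strand): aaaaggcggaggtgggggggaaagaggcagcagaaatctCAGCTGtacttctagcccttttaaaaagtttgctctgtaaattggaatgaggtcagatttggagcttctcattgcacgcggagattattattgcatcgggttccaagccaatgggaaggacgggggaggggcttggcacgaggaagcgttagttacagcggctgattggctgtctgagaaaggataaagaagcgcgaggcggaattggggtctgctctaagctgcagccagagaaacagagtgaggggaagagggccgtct
Sox11 (chr12:27342669-27342968, minus strand): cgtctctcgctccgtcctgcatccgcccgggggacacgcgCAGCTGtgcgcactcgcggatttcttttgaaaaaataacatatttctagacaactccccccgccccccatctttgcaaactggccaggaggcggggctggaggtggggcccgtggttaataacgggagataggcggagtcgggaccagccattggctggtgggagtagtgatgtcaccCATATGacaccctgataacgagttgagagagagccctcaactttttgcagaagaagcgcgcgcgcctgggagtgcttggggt
The *Sox2* window holds 1 E-box, the *Sox4* window 1 and the *Sox11* window 2, and an E-box is present in 72.3% of the 32851 promoters of this length. The motif of SOX proteins, searched as ACAAAG or ACAATG on both strands, matches once in the *Sox2* window and not in the *Sox4* and *Sox11* windows, against 28.6% of all promoters. GC content is 66.3% for *Sox2*, 52.0% for *Sox4* and 58.7% for *Sox11*, beside a median of 52.7%. These matches are letters in a window and were not tested as binding sites.

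All 3 SoxB1 genes, *Sox21* and *Sox9* were lower in neurons than in APs in both libraries, *Sox4* and *Sox11* were higher, and *Sox12* did neither by 2-fold. In the explants *Sox2* had a level of 234 CPM (interval 230 to 239) in 2980 APs and of 51.1 CPM (46.4 to 56.2) in 719 neurons, 4.59-fold lower (4.16 to 5.06). In the vesicle it had 397 CPM (393 to 400) in 6895 APs and 74.3 CPM (69.9 to 79.0) in 1770 neurons, 5.34-fold lower (5.02 to 5.68). *Sox2*, a core factor of neural stem cells, was thus lower, but still counted, in the neuron classes. With the 410 cells without a name on the neuron side added, an alternative chosen after the data were seen, *Sox2* in the explants had 38.6 CPM and was 6.07-fold lower (5.57 to 6.63).

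*Sox21* was 4.12-fold lower (3.55 to 4.82) in neurons of the explants and 8.73-fold lower (7.45 to 10.3) in those of the vesicle. *Sox9* was 3.70-fold lower (3.36 to 4.08) and 4.54-fold lower (4.20 to 4.91), respectively. The other SoxB1 genes had smaller differences: *Sox1* was 2.54-fold lower (2.16 to 3.02) and 3.75-fold lower (3.36 to 4.20), and *Sox3*, an X-linked gene with the fewest UMIs of the set in the explants (1284), was 3.00-fold lower (2.29 to 3.99) and 2.43-fold lower (2.24 to 2.65).

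The SoxC genes *Sox4* and *Sox11* had the reverse pattern. *Sox4* had 401 CPM in APs and 1447 CPM in neurons of the explants, a ratio of 3.61 (3.53 to 3.69), and 447 CPM and 1633 CPM in the vesicle, a ratio of 3.65 (3.59 to 3.71). *Sox11* went from 784 CPM to 2679 CPM, a ratio of 3.42 (3.36 to 3.47), and from 984 CPM to 3839 CPM, a ratio of 3.90 (3.86 to 3.94). *Sox12*, the remaining SoxC gene, had a ratio of only 1.12 (0.995 to 1.27) in the explants, where the interval includes 1, and of 1.46 (1.39 to 1.55) in the vesicle. With the cells without a name added, the ratio in the explants was 1.31 (1.19 to 1.44).

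Of all genes that reached 50 UMIs in both groups together, 15.2% were at least 2-fold higher and 14.8% at least 2-fold lower in neurons of the explants, and 16.4% and 19.3% in the vesicle. Among the 8 *Sox* genes, all past that minimum, 2 were higher and 5 lower in both libraries. Their median ratio of neurons to APs was 0.363 in the explants, beside 1.02 over all genes, and 0.339 in the vesicle, beside 0.946. Classes of APs were named with some of the same genes that order cells along differentiation, so that both views share them, but no *Sox* gene entered either.

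**Figure D1:**
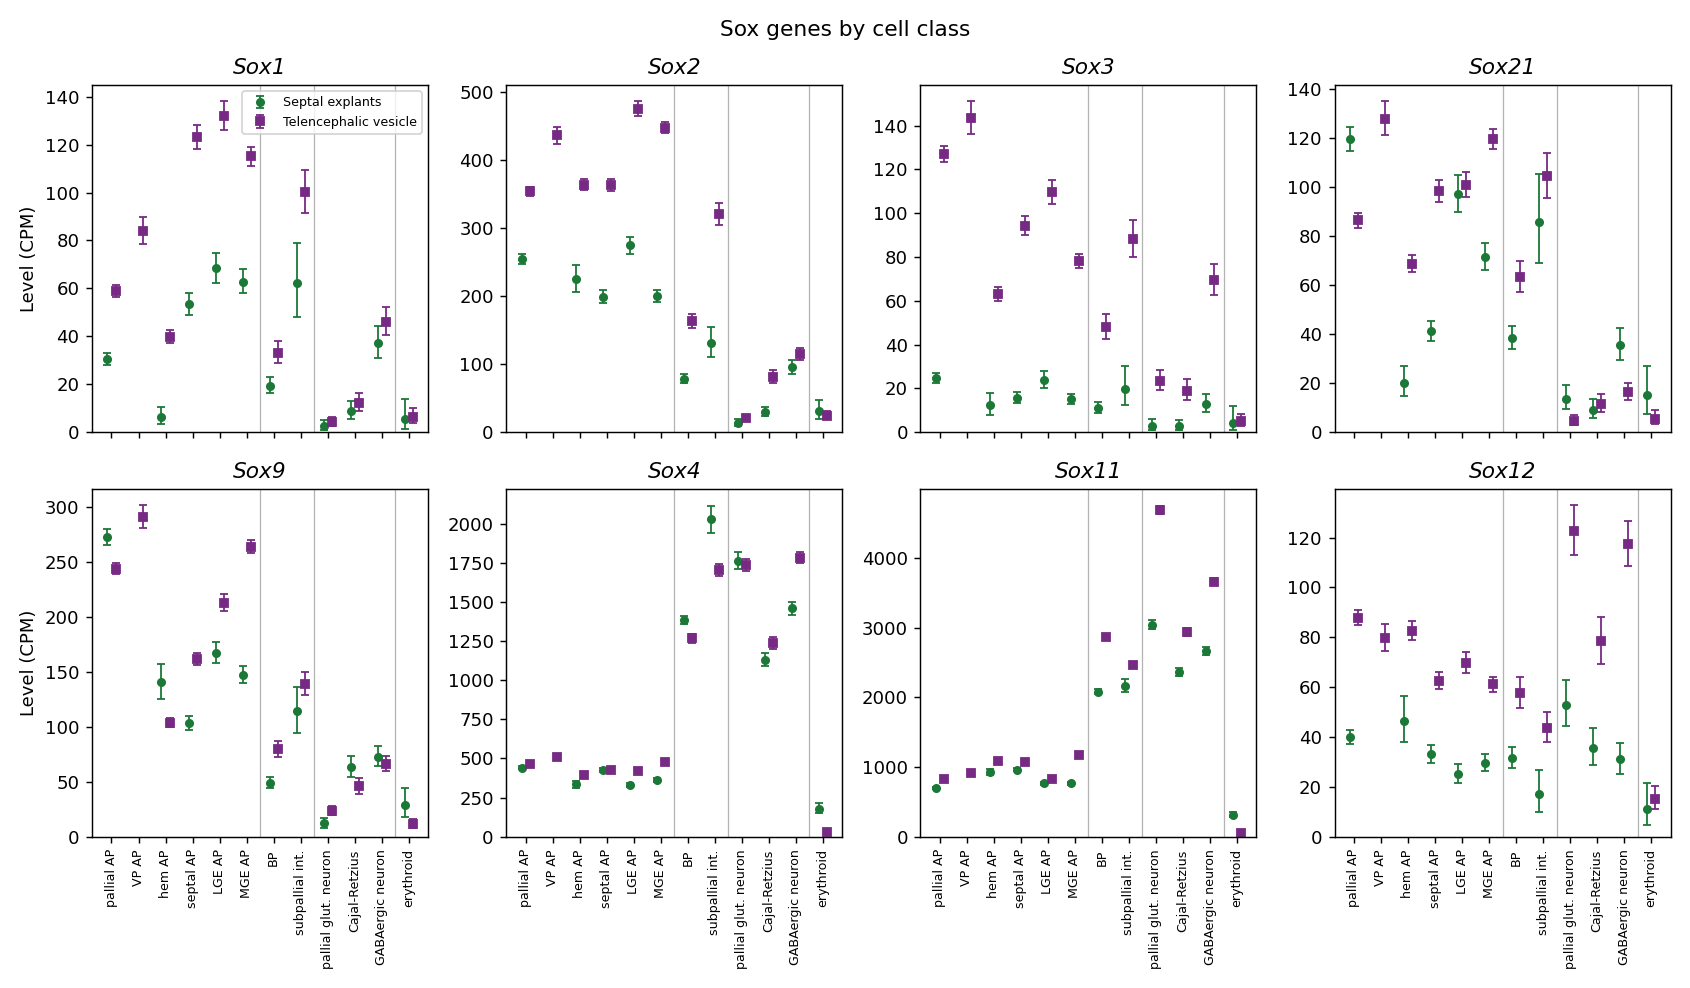
Level (CPM) of each gene in each cell class, circles for the explants and squares for the vesicle, with exact Poisson 95% intervals. Panels have their own scales. From left to right, grey lines separate AP classes, BPs with subpallial intermediate cells, neurons with Cajal-Retzius cells, and erythroid-like cells. *Sox4* and *Sox11* are higher in every BP, intermediate and neuron class than in any AP class.

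In BPs *Sox4* and *Sox11* were already above pallial-like APs, and *Sox2* and *Sox9* already below them. *Sox11* and *Sox2* both lay between APs and glutamatergic-like neurons there, with *Sox11* at 847, 2870 and 4691 CPM in pallial-like APs, BP-like cells and glutamatergic-like neurons of the vesicle and *Sox2* at 372, 164 and 21.3 CPM. In the explants BP-like cells held *Sox4* at 1384 CPM, 3.14-fold (3.05 to 3.23) the level of pallial-like APs, and *Sox11* at 2079 CPM, 2.98-fold (2.91 to 3.05). In the vesicle the corresponding levels were 1270 CPM (2.67-fold, 2.60 to 2.74) and 2870 CPM (3.39-fold, 3.33 to 3.45). *Sox2* in BP-like cells was 3.23-fold lower (2.96 to 3.54) than in pallial-like APs of the explants and 2.27-fold lower (2.12 to 2.42) in the vesicle, while *Sox9* was 5.57-fold lower (4.99 to 6.23) and 3.18-fold lower (2.90 to 3.50). In the explants 2 of the 8 genes were at least 2-fold higher in BPs (7.90% of all genes) and 4 at least 2-fold lower (9.10% of all genes): *Sox2*, *Sox3*, *Sox21* and *Sox9*. In the vesicle 2 were higher (7.34%) and 3 lower (9.67%), since *Sox21* was 1.51-fold lower only.

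The BP-like cells of the explants joined 2 clusters. One, of 329 cells led by *Neurog2*, *Neurod4* and *Neurog1*, had a median of 1.53 on the differentiation axis described below, on which higher values are more neuronal. The other, of 254 cells led by *Shox2*, *Chodl* and *D930028M14Rik*, had *Neurog1* as the only BP marker among its 10 leading genes and a median of 2.78, beside 2.92 in a cluster of glutamatergic-like neurons. *Sox9* was at 67.0 CPM in the first and 15.2 CPM in the second, whereas *Sox2* was at 81.1 and 74.7 CPM. Without the second cluster, an alternative chosen after the data were seen, *Sox9* in BP-like cells was 4.08-fold lower (3.63 to 4.59) and *Sox11* 2.81-fold higher (2.74 to 2.89) than in pallial-like APs.

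Subpallial intermediate-like cells, which stand between APs of the ganglionic eminences and GABAergic neurons, held *Sox4* and *Sox11* together with *Sox1* and *Sox21*. In the explants these 118 cells had *Sox4* at 2030 CPM and *Sox11* at 2168 CPM together with *Sox1* at 62.2 CPM and *Sox21* at 85.7 CPM. The MGE-like and LGE-like APs held *Sox1* at 62.8 and 68.4 CPM and *Sox21* at 71.5 and 97.0 CPM, so that the intermediate cells lay within or near that range. *Sox2* and *Sox9*, in contrast, were lower there, at 132 and 114 CPM beside 232 and 156 CPM in MGE-like and LGE-like APs together. The 541 such cells of the vesicle had *Sox4* at 1704 CPM and *Sox11* at 2468 CPM, with *Sox1* at 100 CPM and *Sox21* at 104 CPM, beside 115 and 132 CPM and 119 and 101 CPM in MGE-like and LGE-like APs. *Sox2* and *Sox9* were at 321 and 139 CPM in these cells, beside 458 and 247 CPM in the APs.

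Among the named neural classes, *Sox12* was lowest in these same cells and highest in glutamatergic-like neurons. It had 17.0 CPM in the subpallial intermediate-like cells of the explants, where pallial glutamatergic-like neurons had 53.0 CPM. In the vesicle it had 43.6 CPM in intermediate-like cells, 123 CPM in glutamatergic-like neurons and 117 CPM in GABAergic-like neurons. *Sox12* thereby differed from the other SoxC genes, which were already above every AP class in intermediate cells.

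To follow the genes within neurogenesis, all neural cells were ordered on a differentiation axis made from 11 neuronal and 9 AP genes, with no *Sox* gene among them, and divided into 10 bins of equal size. The crossing of a gene was taken as the first bin past its peak at 50% or less of its highest bin, or, for a gene higher in neurons, the first bin at 50% or more. In the explants *Sox9* and *Sox4* crossed in bin 7, and *Sox1*, *Sox2*, *Sox3*, *Sox21* and *Sox11* in bin 8. In the vesicle *Sox9*, *Sox4* and *Sox11* crossed in bin 8, and *Sox1*, *Sox2*, *Sox3* and *Sox21* in bin 9. *Sox9* and *Sox4* thus crossed 1 bin before the SoxB genes in both libraries, while the place of *Sox11* differed, and *Sox12* crossed in neither, since its first and last bins both held more than 50% of its highest level. This order depended on how the cells were ordered and divided. With 5 bins all 7 genes crossed in the last bin of the vesicle, and when doublets were kept *Sox9* crossed there together with the SoxB genes. In the explants *Sox9* and *Sox4* crossed at 67.5% of the ordered cells with 20 bins. On an axis of neuronal genes alone *Sox4* crossed at 65% and *Sox9* at 75%. *Sox1* was placed at 57.5% and 55% there, respectively. The rule, however, places a gene at its highest bin where its first and last bins are both under 50%. With 10 bins *Sox1* had 52.3% of its highest level in bin 1, 100% in bin 6, 92.8% in bin 7 and 32.9% in bin 8. Its places at 57.5% and 55% are hence not read as a fall to 50%.

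*Sox2* in the explants stood between 209 and 243 CPM in bins 1 to 6, at 178 CPM in bin 7, at 51.5 CPM in bin 8 and at 29.2 CPM in bin 10. In the vesicle it stood between 365 and 415 CPM in bins 1 to 7, then at 251 CPM in bin 8, 88.0 CPM in bin 9 and 41.9 CPM in bin 10. The level of *Sox2* was hence nearly flat across AP bins and differed in those that hold the transition. *Sox9* in the explants stood at 232 CPM in bin 1, 145 CPM in bin 6, 97.4 CPM in bin 7 and 21.0 CPM in bin 10, but these bins mix regions whose APs differ in *Sox9*, such as pallial-like APs with 273 CPM and septal-like APs with 103 CPM. Among pallial cells alone it stood between 269 and 288 CPM in bins 1 to 5, at 225 CPM in bin 6 and at 41.2 CPM in bin 7, whereas among subpallial cells it went from 217 CPM in bin 1 to 131 CPM in bin 7 and 98.4 CPM in bin 8.

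*Sox4* in the explants had 442 CPM in bin 6, 872 CPM in bin 7 and 1491 CPM in bin 8, and no later bin was higher. *Sox11* had 879, 1253, 2399 and 2749 CPM in bins 6 to 9. In the vesicle *Sox4* had 563, 1240, 1622 and 1701 CPM and *Sox11* 1281, 2387, 3586 and 4073 CPM in bins 7 to 10, so that both were highest in the last bin there. Genes of the transition peaked in or next to these bins. *Neurog2*, *Gadd45g*, *Btg2*, *Hes6* and *Dll1*, which mark cells leaving the AP state, were highest in bin 8 in both libraries, and *Eomes* in bin 8 of the explants and bin 9 of the vesicle. APs made up 56.2% of bin 7 and 1.13% of bin 8 in the explants and 26.0% of bin 8 in the vesicle. In bin 10 of the explants 37.8% of cells belonged to neuron classes with a name, and the rest to BPs, intermediate cells and clusters without a name. Median depth moved with the axis, from 15433 UMIs per cell in bin 2 to 10238 in bin 8 of the explants and from 11802.5 in bin 5 to 6575 in bin 9 of the vesicle, and its part in the levels was not tested.

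**Figure D2:**
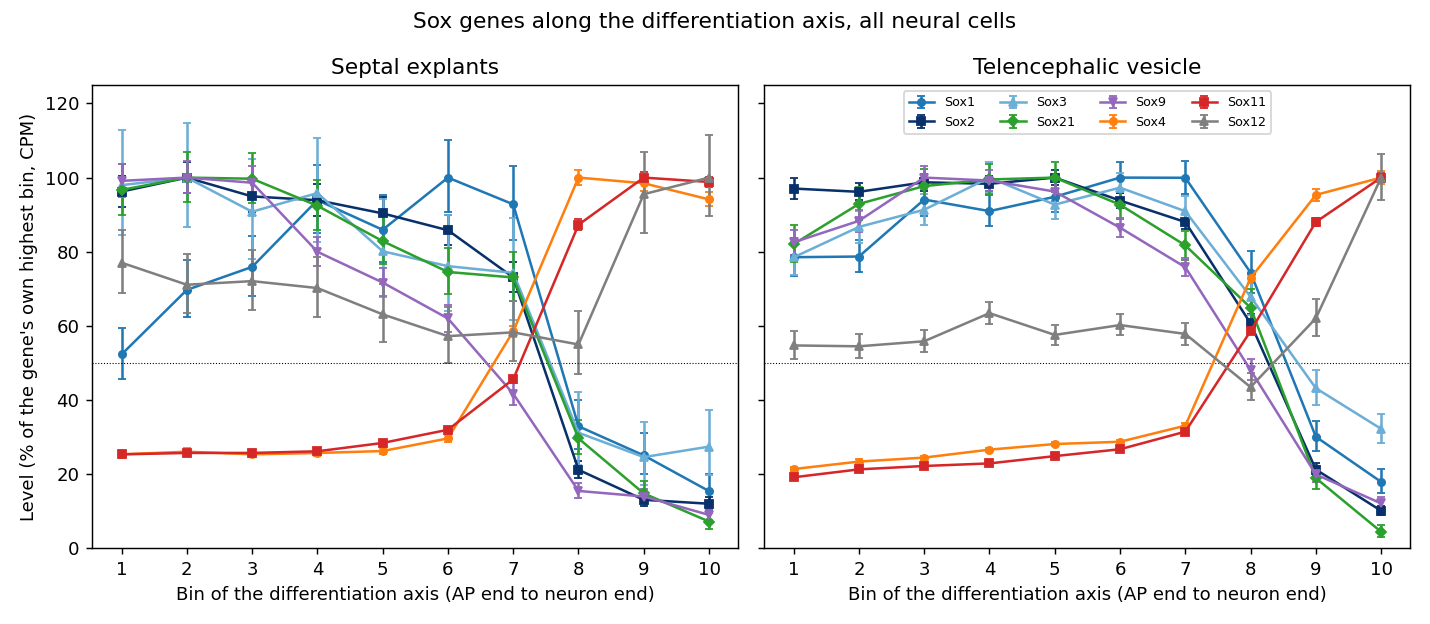
Level of each gene in each of the 10 bins of the differentiation axis, as percent of its own highest bin, with exact Poisson 95% intervals, for all neural cells of the explants (left) and the vesicle (right). The dotted line marks 50%, which *Sox2* passes downwards in bin 8 (left) and bin 9 (right) and *Sox4* upwards in bin 7 (left) and bin 8 (right).

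The difference in SoxB1 and *Sox9* transcripts between neurons and APs was larger in the glutamatergic than in the GABAergic lineage. In the explants *Sox2* was 18.6-fold lower (13.3 to 26.8) in glutamatergic-like neurons than in pallial-like APs, but 2.42-fold lower (2.16 to 2.72) in GABAergic-like neurons than in MGE-like and LGE-like APs. In the vesicle these folds were 17.4 (14.4 to 21.3) and 3.97 (3.67 to 4.30). *Sox1* was 13-fold lower (5.73 to 34.3) against 1.76-fold (1.46 to 2.14) in the explants, and 15.7-fold (10.1 to 25.7) against 2.62-fold (2.31 to 2.98) in the vesicle. For both genes the intervals of the lineages did not overlap in either library. The glutamatergic-like neurons of the explants joined a cluster of 106 cells led by *Neurod6*, *Pcp4* and *Prdm8* and one of 104 cells led by *Gm26872*, *Gjd2* and *Barhl2*. The latter had no gene of the glutamatergic marker list among its 10 leading genes, so that its match to pallial-like APs is less certain.

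*Sox9* was 22.5-fold lower (15.8 to 33.4) in the glutamatergic and 2.14-fold lower (1.87 to 2.45) in the GABAergic lineage of the explants, and 10.9-fold (9.03 to 13.2) and 3.72-fold lower (3.36 to 4.13) in the vesicle. *Sox3* in GABAergic-like neurons of the vesicle was only 1.28-fold lower (1.15 to 1.42) than in MGE-like and LGE-like APs. *Sox21* was likewise 8.69-fold lower (6.20 to 12.6) in the glutamatergic and 2.31-fold lower (1.91 to 2.81) in the GABAergic lineage of the explants, and 21.1-fold (13.9 to 33.6) and 6.93-fold lower (5.64 to 8.60) in the vesicle. The glutamatergic folds of several of these genes rest on neurons at the level of free RNA, given below.

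The median ratio of the 8 genes was 0.114 in the glutamatergic and 0.630 in the GABAergic lineage of the explants, and 0.136 and 0.582 in the vesicle, where medians over all genes lay between 0.893 and 0.999.

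In contrast, *Sox4* and *Sox11* were higher in neurons of both lineages. *Sox4* was 4.0-fold (3.86 to 4.15) and 4.19-fold higher (4.03 to 4.35) in glutamatergic-like and GABAergic-like neurons of the explants and 3.65-fold (3.56 to 3.75) and 3.88-fold higher (3.79 to 3.98) in those of the vesicle. *Sox11* was 4.36-fold (4.24 to 4.49) and 3.48-fold higher (3.39 to 3.58) in the explants and 5.54-fold (5.45 to 5.63) and 3.47-fold higher (3.41 to 3.52) in the vesicle, larger in the glutamatergic lineage both times. Cajal-Retzius-like cells, set against hem-like APs, had lower *Sox2* (7.55-fold, 5.93 to 9.71, in the explants and 4.47-fold, 3.97 to 5.05, in the vesicle) with *Sox4* at ratios of 3.39 and 3.14.

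These cells joined 2 clusters in each library, of which 1 was led by genes known from multiciliated cells. In the explants a cluster of 107 cells led by *Ccno*, *Shisa8* and *Mcidas* held *Sox2* at 39.2 CPM, and one of 111 cells led by *Sncg*, *Aldh1a1* and *Lhx1os* held it at 21.6 CPM. In the vesicle a cluster of 127 cells led by *Mcidas*, *Ccno* and *Cdc20b*, with the Cajal-Retzius marker *Trp73* also among its 10 leading genes, held *Sox2* at 152 CPM, and one of 265 cells led by *Gm28526*, *Lhx1* and *Fam189a1* held it at 43.1 CPM. Without the clusters led by *Mcidas*, an alternative chosen after the data were seen, *Sox2* was 10.4-fold lower (7.21 to 15.6) in the explants and 8.45-fold lower (6.92 to 10.4) in the vesicle, and *Sox4* had ratios of 3.68 and 3.66. Neurons as a whole then had *Sox2* 4.41-fold lower (3.98 to 4.90) and 5.93-fold lower (5.54 to 6.35) than APs. With or without the *Mcidas* cluster, *Sox2* in Cajal-Retzius-like cells of the explants was no higher than in erythroid-like cells, given below. Its folds in these cells of the explants may thus be limited by background, which was not tested at equal depth.

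**Figure D3:**
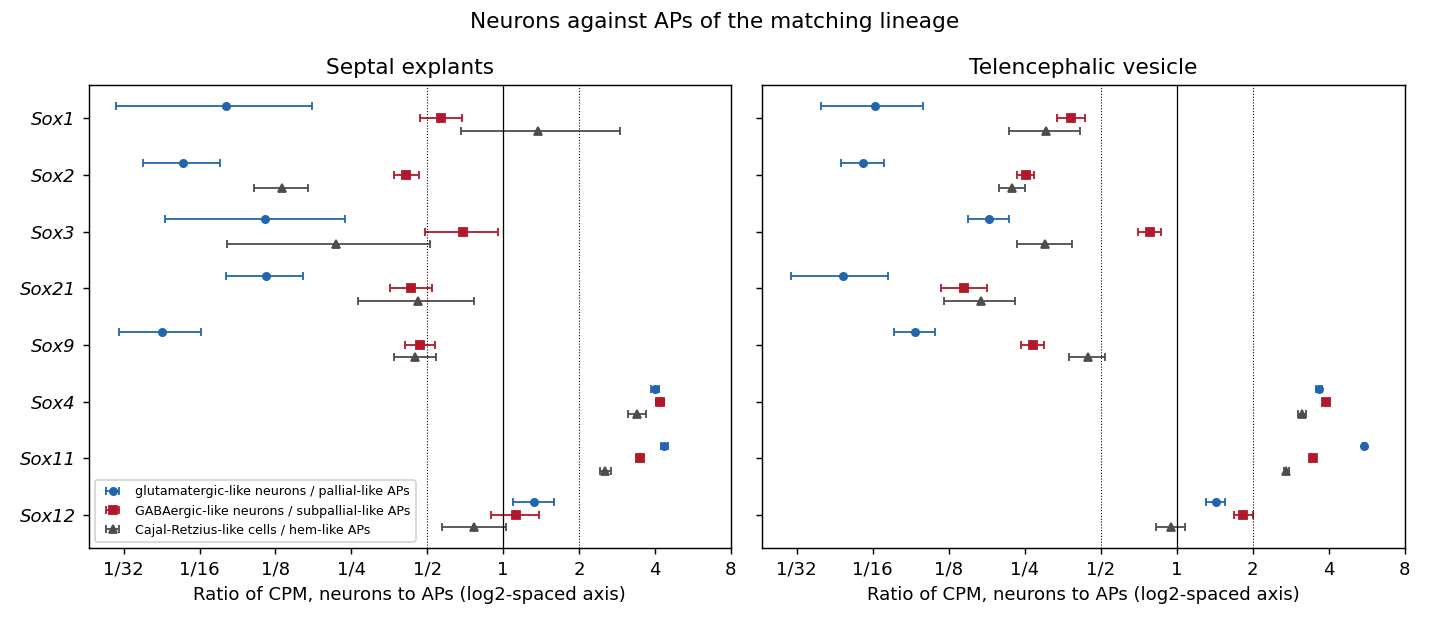
Ratio of CPM in neurons to CPM in the APs set against them, on a log-spaced axis, with exact conditional binomial 95% intervals and dotted lines at 2-fold. Circles are glutamatergic-like neurons, squares GABAergic-like neurons and triangles Cajal-Retzius-like cells, the last set against hem-like APs only. The pairs were set by class name, and descent was not traced for them. For *Sox1*, *Sox2*, *Sox3* and *Sox9* the circles stand far left of the squares in both libraries, while for *Sox4* they stand close together.

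Set against each other directly, GABAergic-like neurons held more of all 5 progenitor-type genes than glutamatergic-like neurons. In the explants *Sox2* had 95.8 CPM against 13.7 CPM (ratio 6.97, 4.88 to 10.2) and *Sox1* 37.0 CPM against 2.43 CPM (15.3, 6.82 to 42.4). In the vesicle *Sox2* had 115 CPM against 21.3 CPM (5.40, 4.39 to 6.71) and *Sox1* 46.1 CPM against 4.11 CPM (11.2, 7.13 to 18.7). *Sox9*, *Sox3* and *Sox21* had ratios of 6.01, 4.58 and 2.59 in the explants and 2.83, 2.94 and 3.61 in the vesicle. Those 5 genes were the only ones of the 8 at least 2-fold higher in both libraries, where 6.20% and 5.49% of all genes were, and 0 of the 8 were at least 2-fold lower, where 5.49% and 4.33% were. The median ratio was 3.58 for the 8 genes and 1.0 for all genes in the explants, and 2.89 and 1.06 in the vesicle.

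The SoxC genes *Sox4* and *Sox11* differed little here. *Sox4* had ratios of GABAergic-like to glutamatergic-like neurons of 0.826 (0.793 to 0.861) in the explants and 1.03 (0.999 to 1.06) in the vesicle, and *Sox11* of 0.875 (0.848 to 0.902) and 0.780 (0.766 to 0.795). *Sox12* differed more in the explants, with a ratio of 0.586 (0.448 to 0.764), but not in the vesicle, with 0.956 (0.855 to 1.07).

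Glutamatergic-like neurons stood at the level of free RNA for several of these genes. Erythroid-like cells, blood cells that serve as a reference for free RNA, held *Sox2* at 24.2 CPM, *Sox1* at 6.58 CPM and *Sox21* at 5.54 CPM, with intervals that overlap those of glutamatergic-like neurons. A UMI of *Sox2* was present in 77 of the 617 glutamatergic-like neurons (9.98 to 15.3%, median depth 7000 UMIs) and in 7.50% (5.12 to 10.5%) of the 400 erythroid-like cells at a median of 5428.5 UMIs. After each cell was thinned to 3500 UMIs, which left out 12 and 43 cells, the shares were 5.95% and 4.76%, and are read as background. The GABAergic-like neurons, with 39.6% of 761 cells and 26.5% after thinning, with 20 left out, at a median of 6626 UMIs, stood above it. In the explants 26 erythroid-like cells with a median of 29045.5 UMIs, of which 30.8% had a UMI of *Sox2*, held it at 31.5 CPM (23 UMIs), with *Sox9* at 28.8, *Sox21* at 15.1, *Sox1* at 5.49 and *Sox3* at 4.12 CPM. The 13.7, 12.1, 13.7, 2.43 and 2.83 CPM of these genes in glutamatergic-like neurons were no higher. The ratios of the explants set against these neurons may hence be limited by background as well. Cajal-Retzius-like cells of the explants were likewise no higher in *Sox2* (29.8 CPM), *Sox21* (9.18) and *Sox3* (2.68), but higher in *Sox9* (63.1). Their *Sox1* (8.80) could not be told from that of the erythroid-like cells, which rests on few UMIs. The 26 erythroid-like cells held more *Sox2* and *Sox9* than glutamatergic-like neurons, and whether they hold free RNA only was not tested. They were also deeper than the neurons of the explants, and CPM does not give free RNA per cell.

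GABAergic-like neurons were not a single population, and their clusters differed in these genes. In the explants a cluster of 169 cells led by *Lhx8*, *Sp9* and *Dlx6os1*, with a median axis value of 2.30, held *Sox2* at 118 CPM and *Sox21* at 57.6 CPM. The other, of 122 cells led by *Slc32a1*, *Ecel1* and *Gad1* with a median axis value of 3.97, held *Sox2* at 68.7 CPM and *Sox21* at 8.68 CPM. In the vesicle *Sox2* ranged from 58.6 CPM in a cluster of 137 cells led by *Tac1*, which was furthest along the axis, to 174 CPM in one of 286 cells.

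When only cells with an axis value of at least 3 were compared, *Sox2* stayed higher in GABAergic-like neurons, with 69.0 CPM in 151 cells against 15 CPM in 114 cells of the explants (ratio 4.59, 2.87 to 7.69) and 86.6 CPM in 508 cells against 15.7 CPM in 476 cells of the vesicle (5.50, 4.16 to 7.39). *Sox1* also stayed higher, with ratios of 7.25 (2.88 to 23.4) and 16.6 (8.20 to 39.3). *Sox21* in the explants did not, with a ratio of 0.778 (0.377 to 1.60). This restriction was chosen after the data were seen.

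Ordered within each lineage, the genes of the vesicle crossed close together in pallial cells and further apart in subpallial cells. Among 3370 pallial cells of the vesicle *Sox1*, *Sox2*, *Sox3*, *Sox21*, *Sox9*, *Sox4* and *Sox11* all crossed in bin 8. Among 3866 subpallial cells *Sox9*, *Sox4* and *Sox11* crossed in bin 8, *Sox1*, *Sox2* and *Sox21* in bin 9, and *Sox3* did not reach 50%, with 98.8 CPM in bin 8, 90.2 CPM in bin 9 and 55.3 CPM in bin 10. *Sox12* crossed there in bin 9, with 145 CPM in bin 10.

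In the explants the crossings spread over 2 bins in either lineage. Among 1866 pallial cells *Sox2*, *Sox3*, *Sox21*, *Sox9*, *Sox4* and *Sox11* crossed in bin 7 and *Sox1* in bin 8, whereas among 1469 subpallial cells *Sox9*, *Sox4* and *Sox11* crossed in bin 8 and *Sox1*, *Sox2*, *Sox3* and *Sox21* in bin 9. Bins hold equal numbers of cells of a lineage, and the lineages differ in their share of neurons, so that the same bin number stands for other axis values in each. The median axis value of bin 8 of the vesicle was 1.93 among pallial and 0.948 among subpallial cells, and levels were not compared bin by bin between lineages.

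**Figure D4:**
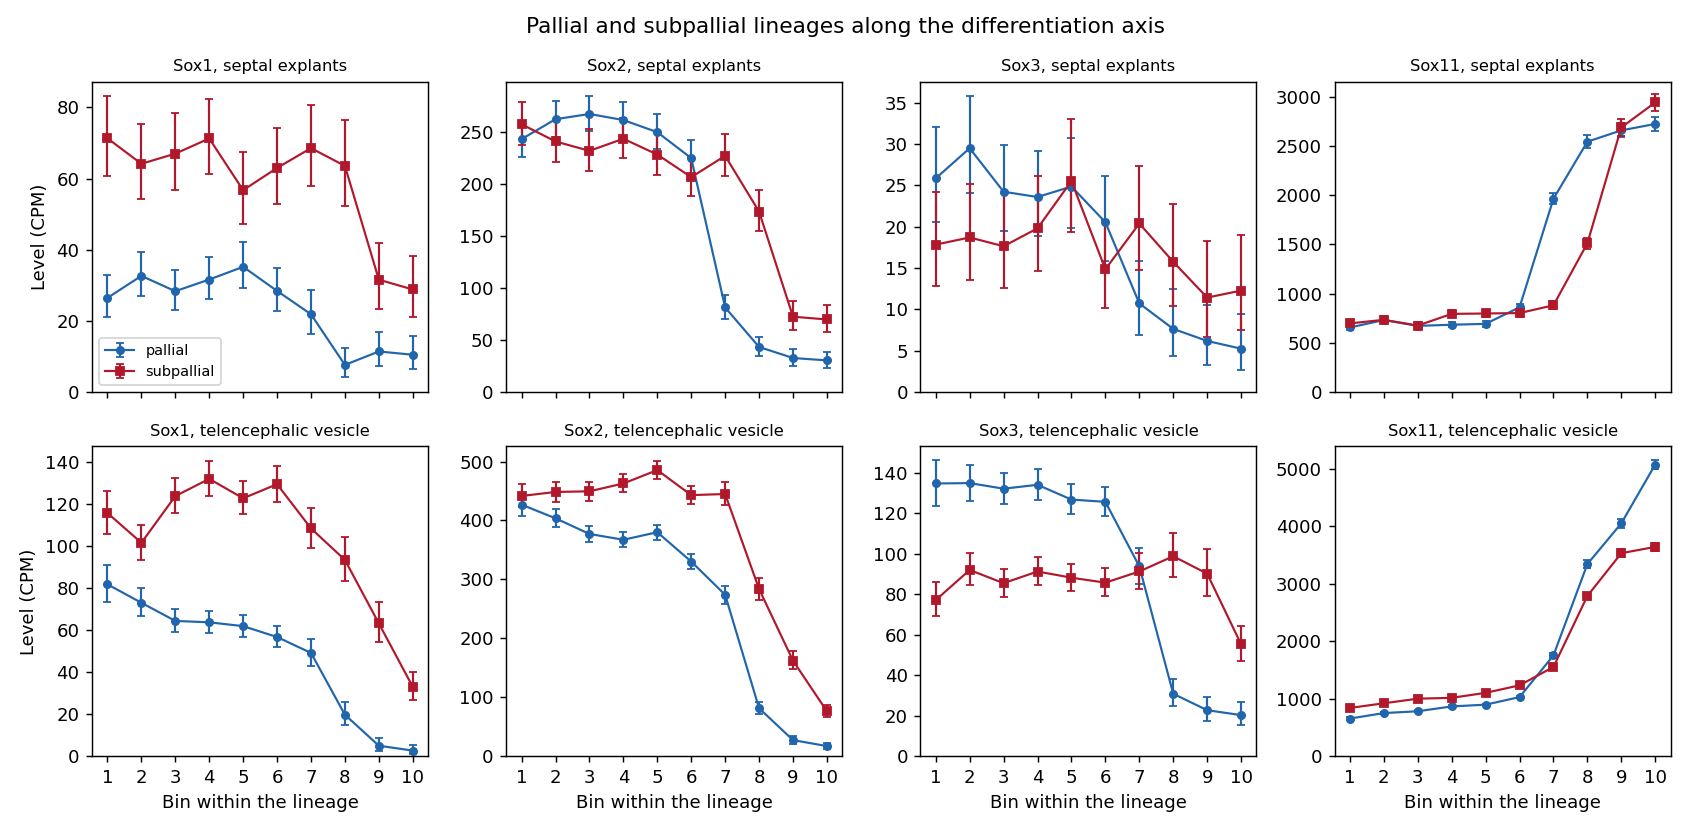
Level (CPM) of *Sox1*, *Sox2*, *Sox3* and *Sox11* in 10 bins of the differentiation axis within the pallial (circles) and subpallial (squares) lineages, with exact Poisson 95% intervals, for the explants (top) and the vesicle (bottom). *Sox2* is lower in the last bins of both lineages, with 17.2 CPM in the last pallial and 76.3 CPM in the last subpallial bin of the vesicle, whose median axis values are 4.60 and 4.85.

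Among APs the genes differed by region, *Sox1*, *Sox3*, *Sox9* and *Sox21* by more than 2-fold between some classes. For hem-like and septal-like APs the share of all genes past 2-fold was not taken, so that these folds are not set against it. The median ratio of hem-like to pallial-like APs was 0.636 for the 8 genes and 1.04 for all genes in the explants, and 0.776 and 1.04 in the vesicle. In the explants hem-like APs held *Sox21* 5.96-fold (4.42 to 8.22) and *Sox1* 4.76-fold lower (2.82 to 8.77) than pallial-like APs. The folds between neurons and APs there were 4.12 (3.55 to 4.82) and 2.54 (2.16 to 3.02), with intervals that overlap these. Both genes in these hem-like APs, at 20.1 and 6.38 CPM, were close to the erythroid-like cells given above. Their folds may hence be limited by background, but those blood cells were deeper, and this was not tested. In the vesicle they held *Sox9* 2.45-fold (2.34 to 2.56) and *Sox3* 2.08-fold lower (1.96 to 2.20), but *Sox21* only 1.39-fold lower (1.31 to 1.47). *Sox1* in the explants had 30.4 CPM (27.9 to 33.1) in pallial-like, 53.4 CPM in septal-like, 62.8 CPM in MGE-like, 68.4 CPM in LGE-like and 6.38 CPM in hem-like APs. In the vesicle it had 59.0 CPM in pallial-like, 84.0 CPM in ventral pallium-like (VP-like), 123 CPM in septal-like, 115 CPM in MGE-like, 132 CPM in LGE-like and 39.9 CPM in hem-like APs. Hem-like APs were lowest and pallial-like APs next in both libraries, and septal-like APs stood with the subpallial classes. The names of MGE-like and LGE-like APs in the explants are less certain. An MGE-like cluster of 385 cells had the LGE marker *Gsx2* first among its leading genes, beside *Olig1* and *Olig2* of the MGE list. Only an MGE-like cluster of 104 cells was led by *Nkx2-1*.

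The ratio of *Sox1* in pallial-like to subpallial-like APs was 0.467 (0.422 to 0.517) in the explants and 0.532 (0.509 to 0.557) in the vesicle, whose pallial-like group also holds the VP-like cells. It was the 1 gene of 8 at least 2-fold lower in the explants, where 3.00% of all genes were, and 0 were in the vesicle, where 4.11% were. At least 2-fold higher were 0 in either library, against 2.58% and 2.76% of all genes. The median ratios of the 8 genes were 1.30 and 0.936, beside 1.0 and 0.983 over all genes.

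*Sox3* was higher in pallial-like APs in both libraries, with ratios of 1.33 (1.15 to 1.54) and 1.47 (1.41 to 1.53). *Sox12* was as well, with ratios of 1.44 (1.29 to 1.62) and 1.35 (1.28 to 1.41), and *Sox11* was lower, with 0.912 (0.890 to 0.935) and 0.802 (0.792 to 0.813). *Sox9* had a ratio of 1.75 (1.67 to 1.84) in the explants and 1.03 (1.0 to 1.06) in the vesicle. Septal-like APs had less *Sox9* than pallial-like APs in both, 2.65-fold (2.48 to 2.84) and 1.57-fold (1.51 to 1.63), and *Sox21* was 2.91-fold lower (2.61 to 3.24) in septal-like APs of the explants but not of the vesicle, where the ratio was 1.03 (0.978 to 1.09). Septal-like APs had more *Sox11*, with ratios of 1.38 (1.34 to 1.41) and 1.27 (1.25 to 1.29). Those of the vesicle joined a cluster of 438 cells led by *Fgf17* and *Fgf8* and one of 427 cells led by *Col25a1*. The latter had no septal marker among its 10 leading genes, so its name is less certain. The levels and ratios of septal-like APs of the vesicle pool both clusters.

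Hem-like APs of the vesicle joined 3 clusters that differed in *Sox1* and *Sox21*. A cluster of 393 cells led by *Wnt3a*, a signal of the cortical hem, had *Sox1* at 13.6 CPM and *Sox21* at 22.4 CPM. A cluster of 303 cells led by *Ttr*, *Htr2c* and *Trpm3*, genes of the choroid plexus, of which *Ttr* was also in the marker list of the hem, had 7.70 and 15.8 CPM, whereas a cluster of 422 cells led by *Adamtsl1* had 86.3 and 149 CPM. The last had *Rspo2* as its only hem marker among its 10 leading genes, beside the VP marker *Sfrp2*, so its name is less certain. *Sox2* was 425, 276 and 339 CPM in the clusters led by *Wnt3a*, *Ttr* and *Adamtsl1*, beside 397 CPM over all APs. Low *Sox1* and *Sox21* thus went with *Sox2* above the level of all APs in the cluster led by *Wnt3a*, but below it in the one led by *Ttr*. Without the cluster led by *Ttr*, an alternative chosen after the data were seen, hem-like APs held *Sox1* 1.36-fold (1.26 to 1.47) and *Sox9* 2.18-fold lower (2.08 to 2.28) than pallial-like APs, and *Sox2* was 4.72-fold lower (4.19 to 5.34) in Cajal-Retzius-like cells than in these APs. The hem-like APs of the explants, 134 cells, likewise had *Sox1* at 6.38 CPM and *Sox21* at 20.1 CPM with *Sox2* at 225 CPM.

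Since levels summed over cells cannot show whether the progenitor and neuronal genes meet in the same cell, cells with a UMI of both *Sox2* and *Sox11* were counted. In the explants 3645 of 5324 neural cells (68.5%, exact Clopper-Pearson interval 67.2 to 69.7%) held both, and in the vesicle 7611 of 9821 (77.5%, 76.7 to 78.3%). Without the clusters that had no name, an alternative added after the data were seen, the share in the explants was 73.1%. After thinning to 8000 UMIs in the explants, which left out 506 cells, and to 3500 in the vesicle, which left out 254, the shares were 59.7% and 55.5%. *Sox11* was detected in nearly all neural cells, so that the share mainly follows *Sox2*.

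By class, both genes were found in 89.2% of APs, 43.7% of BP-like cells and 31.0% of neurons in the explants, at median depths of 14391, 10699 and 11007 UMIs. In the vesicle the shares were 93.0%, 50.1% and 26.6%, at 11019, 7415 and 6855 UMIs. Thinned, they were 77.4%, 36.3% and 23.5% in the explants, leaving out 157, 92 and 72 cells, and 67.5%, 29.8% and 16.2% in the vesicle, leaving out 196, 11 and 36. Both genes were found in 4.0% of the erythroid-like cells of the vesicle (2.30 to 6.41%), and in 2.52% after thinning. In the explants the share of the 26 erythroid-like cells with a UMI of *Sox2*, given above, was close to that of neurons with both genes. Those cells were deeper, at a median of 29045.5 UMIs, so that this share cannot show whether the neurons there stand above background. The order of the classes was the same with and without thinning.

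Along the axis the share stood at 73.1% in bin 7, 37.6% in bin 8 and 22.6% in bin 10 of the explants, and at 65.4% in bin 8, 33.8% in bin 9 and 19.8% in bin 10 of the vesicle.

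**Figure D5:**
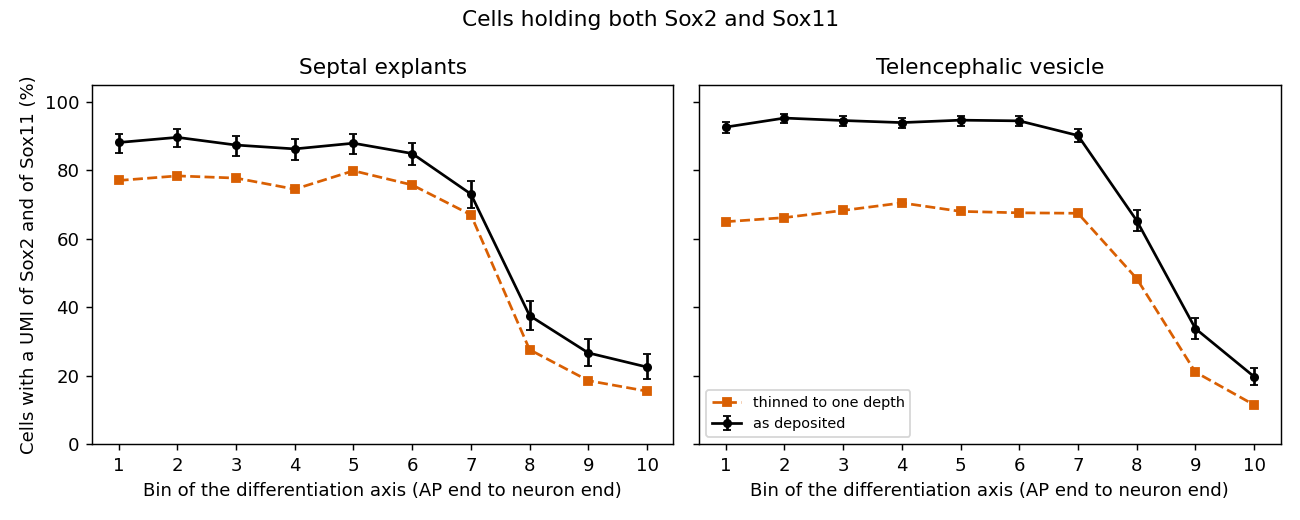
Share of cells with a UMI of *Sox2* and of *Sox11* in each of the 10 bins of the differentiation axis, for the explants (left) and the vesicle (right), as deposited with exact Clopper-Pearson 95% intervals (circles) and after thinning of each cell to one depth (squares). The share is 88.2% and 92.7% in the first bins as deposited and 22.6% and 19.8% in the last.

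Over the 29 clusters of each library, *Sox4* and *Sox11* had Pearson correlations of log2(CPM + 1) of 0.94 in the explants and 0.96 in the vesicle, and *Sox2* and *Sox3* of 0.91 and 0.84. *Sox2* and *Sox11* had -0.41 and 0.02. The clusters include those outside the neural comparisons, erythroid-like and mesenchyme-like cells in both libraries, with macrophage-like, endothelium-like and shallow unnamed cells in the vesicle. Correlations over neural clusters alone were not taken, so that these values do not show how the genes relate among neural cells. Clusters of a library also share its cells' preparation and differ in depth, so that these values describe the clusters only. The genes most like *Sox11* were *Akap9* (r = 0.97), *Peli1* (0.96) and *Zfand5* (0.95) in the explants and *Soga3* (0.97), *Gdpd1* (0.96) and *Mex3b* (0.95) in the vesicle. For *Sox4* they were *Peli1*, *Ube2b* and *Dvl3*, and *4833439L19Rik*, *Csnk1e* and *Dvl3*, with r between 0.94 and 0.95.

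For *Sox2* the most alike were *Spata13* (0.95), *Nrarp* (0.92) and *Peg12* (0.91) in the explants and *Sema5b* (0.91), *Mir670hg* (0.90) and *Nol7* (0.88) in the vesicle. *Nr2e1*, a nuclear receptor of neural stem cells, was among the 3 most like *Sox21* in both libraries (0.90 and 0.93), with *Baz1a* and *Mcm7*, and *Napepld* and *Nrarp*. *Sox1* was most like *Fzd8*, *Nkx2-3* and *Adgrv1*, and *Gm14342*, *Fgf15* and *Mpped1*, and *Sox3* most like *Nle1*, *Epb41l5* and *Dab1*, and *Inip*, *Mir670hg* and *Nr2e1*. *Sox9* was most like *Mre11a*, *Nrarp* and *Chek1*, and *Fndc3c1*, *Trnt1* and *Lmnb1*, and *Sox12* like *Calr*, *Coa5* and *Ifngr2*, and *Ncs1*, *Slc22a17* and *Nudt11*.

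Among 11 further *Sox* genes, 4 had at least 50 UMIs in the explants and 9 in the vesicle. *Sox8*, the SoxE relative of *Sox9*, was lower in neurons than in APs, with ratios of 0.144 (0.0292 to 0.430) and 0.0624 (0.0169 to 0.160), and so was the SoxD gene *Sox13*, with 0.183 (0.111 to 0.286) and 0.169 (0.118 to 0.234). The SoxD gene *Sox6* had ratios of 0.589 (0.497 to 0.695) and 0.584 (0.567 to 0.603), while *Sox5* had 1.26 (1.12 to 1.42) in the explants and 0.654 (0.631 to 0.678) in the vesicle. The opposite directions of *Sox5* were not tested. Stage, dissection, kit, reference and counting software differ between the libraries and cannot be told apart. *Sox10* was counted with 118 UMIs and *Sox30* with 167 in the vesicle. Of *Sox17* and *Sox18*, genes of the vessel wall, 85 of 88 and 103 of 117 UMIs there came from 22 endothelium-like cells, as did 57 of the 66 UMIs of *Sox7*, and *Sox14* and *Sox15* had 18 and 5 UMIs. In the explants *Sox7* and *Sox17* had 1 UMI each, *Sox10* and *Sox18* had 6 each, *Sox30* had 11, and *Sox14* and *Sox15* had 0.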

How the data were processed

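The authors deposited raw counts (UMIs for each gene in each barcode) made with Cell Ranger 2.1.1 (Chromium 3′ kit v2, mm10 with reporter sequences) for the septal explants and Cell Ranger 7.1.0 (kit v3.1, mm10 per the processing notes) for the telencephalic vesicle. Whether intronic reads were counted is not given in the sources used here. Of 5827 and 14283 barcodes (83103280 and 194821794 UMIs), those whose mitochondrial share lay no more than 3 MAD from the median were kept, and 60 and 764 doublets were removed with Scrublet. Clusters came from 2000 variable genes, 30 components and 15 neighbours by Leiden clustering (resolution 1.5), without *Sox*, cell cycle, sex-linked and reporter genes (scanpy 1.11.5, igraph 0.11.9, scipy 1.17.1, Python 3.11.15). A class needed 3 markers, and the naming rule was revised after clusters had been seen. Neurons are the glutamatergic-like, GABAergic-like and Cajal-Retzius-like classes. Cells were ordered by log2((N + 1)/(A + 1)), with N the UMIs of 11 neuronal and A those of 9 AP genes. The pallial lineage pools pallial-like and VP-like APs, BPs and glutamatergic-like neurons, and the subpallial lineage MGE-like and LGE-like APs, intermediate-like cells and GABAergic-like neurons. No septal neuron class could be named, so that no septal lineage was ordered. Ratios of summed UMIs have exact conditional binomial intervals. All 8 members, and of 11 other *Sox* genes those with at least 50 UMIs, are named, with the 3 genes most alike among those of at least 20 CPM in a cluster. Members and lists were chosen with earlier results of these data known. A gene of the transition list is not reported here.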

Additional observations from a re-analysis of the deposited data

Results flagged for a closer look

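For *Sox2* the ratio of pallial-like to subpallial-like APs was 1.10 in the explants and 0.813 in the vesicle, on opposite sides of 1. For *Sox21* it was 1.46 and 0.842. The difference between the libraries was not tested, and stage, dissection, kit and reference differ along with it and cannot be told apart. The *Sox2* value of the explants also moved to the other side of 1 under other cell filters.

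Mesenchyme-like cells of the vesicle, 493 cells outside the neural comparisons, held *Sox9* at 140 CPM, *Sox4* at 430 CPM, *Sox11* at 569 CPM and *Sox12* at 74.9 CPM, above the 11.1, 29.1, 54.3 and 15.2 CPM of the erythroid-like cells. Their *Sox2* was at 17.0 CPM, below the 24.2 CPM of the erythroid-like cells.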

How the results depend on the processing

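No paired analysis was possible because each library is 1 pooled sample and no result comes from a test. Ratios of neurons to APs kept their direction under every alternative for *Sox2* (0.140 to 0.308 in the explants, 0.153 to 0.379 in the vesicle), *Sox4* (3.22 to 3.81 and 3.12 to 4.08) and *Sox11* (3.15 to 3.73 and 3.28 to 4.29). Of the members at least 2-fold lower in neurons, 5 in each library, 3 were past a threshold of 3-fold in the explants and 3 with stages taken from the lowest and highest 3 bins in the vesicle. The count of members lower in pallial-like APs of the explants was 0 with thinned cells or a 3-fold threshold, and 1 was higher at 1.5-fold. The counts of 2 higher and 5 lower members in neurons did not change with the clusters without a name on the neuron side or without the Cajal-Retzius-like clusters led by *Mcidas*. In the vesicle 1 was lower in pallial-like APs with regions gated by single cells or at 1.5-fold. The share of all genes is not given for these alternatives, so that their counts are not set against it.

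Ratios of pallial-like to subpallial-like APs passed to the other side of 1 in the explants for *Sox2* (0.990 with all barcodes, 0.971 with doublets kept, 0.994 with at least 1000 genes per cell) and *Sox4* (0.971 gated by single cells), and in the vesicle for *Sox9* (0.974 with doublets kept, 0.995 at a Leiden resolution of 2.5, 0.839 gated) and *Sox4* (0.947 thinned, 0.955 as a mean over cells, 0.918 gated). In cells with an axis value of at least 3, *Sox21* in GABAergic-like to glutamatergic-like neurons of the explants was 0.778. The cause was not tested for any of these.

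The crossing of 50%, as percent of ordered cells, moved to 90 with 5 bins for *Sox1*, *Sox2*, *Sox3* and *Sox21* in the explants and for *Sox9*, *Sox4* and *Sox11* in the vesicle. It moved to 55 on an axis of AP genes alone for *Sox9* in the vesicle. *Sox1* in the explants was placed at 57.5 with 20 bins and at 55 on an axis of neuronal genes alone. As said above, these places of *Sox1* are not read as a fall to 50%. The share of cells with *Sox2* and *Sox11* was 67.2% with all barcodes, 59.7% thinned, 50.3% with at least 2 UMIs of each and 73.1% without unnamed clusters in the explants, and 79.0% with doublets kept, 78.3% with at least 1000 genes per cell, 55.5% thinned and 65.1% with at least 2 UMIs of each in the vesicle.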

Other observations

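In the explants, where the reporters separate part of the cells by origin, APs with at least 1 UMI of tdTomato and none of YFP, the reporter of the E12.5 *Dbx1Cre;Rosa26tdTomato* embryos, held *Sox11* at 885 CPM (847 to 924, 147 cells), and APs with at least 3 UMIs of YFP and none of tdTomato, the reporter of the E11.5 embryos, at 764 CPM (754 to 775, 1679 cells). A tdTomato UMI was present in 15.6% (13.3 to 18.1%) of 942 APs without YFP and, as a background, in 1.35% (0.859 to 2.02%) of 1702 APs with YFP. With at least 2 UMIs of tdTomato, *Sox11* was at 982 CPM (910 to 1059, 47 cells), and with at least 3 at 869 CPM (785 to 960, 31 cells). Within septal-like APs the levels were 1142 CPM (1060 to 1229, 45 cells) and 927 CPM (902 to 952, 401 cells), and within pallial-like APs 778 CPM (720 to 840, 47 cells) and 658 CPM (642 to 673, 532 cells). *Sox2* had overlapping intervals, at 236 CPM (216 to 256) and 228 CPM (223 to 234) over all APs. Stage, reporter and *Dbx1* lineage differ together between these cells and cannot be told apart.

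*Sox2ot*, the non-coding gene around *Sox2*, was listed in the vesicle with 97070 UMIs. Its ratio of neurons to APs was 0.979 (0.957 to 1.0), with its highest level, 1360 CPM, in subpallial intermediate-like cells. *Sox1ot* had a ratio of 0.307 (0.275 to 0.343).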
